A study of Neurospora crassa with 12 samples.

Results

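Conidia are the asexual spores of the filamentous fungus *Neurospora crassa*, and germination takes them from a resting cell to a growing, branching hypha. The comparison described here set 3 libraries of freshly plated conidia, collected 15 min after inoculation, against 3 libraries collected at 360 min, when hyphae made their first branches. It used 6 of the 12 libraries of the course, and 8118 of the 10592 genes in the count table had enough counts to be tested. Both groups were the *mat A* wild-type strain FGSC2489, spread as conidial suspension on cellophane over potato dextrose agar (PDA) at 25°C. Per the paper's methods, the plates were kept in continuous white light. No strain, mutation, or agent differed between the groups. The conidia had been raised on another medium (Bird medium), so that the move to PDA and the time of growth changed together and their parts in a difference cannot be told apart. Plates were sampled once most conidia had reached the stage, and some spores of another stage can be in every library. RNA of many cells was pooled, and fewer cells of a type and less RNA per cell cannot be told apart.

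A dormant conidium carries stored mRNA, stored trehalose, and a water-repellent coat of hydrophobin. During germination it takes up water, restarts translation and respiration, grows isotropically, and then fixes a polarity axis at which actin and secretory vesicles build a germ tube. Glucose-rich medium represses genes for the use of poor carbon sources and feeds glycolysis. The proteasome, which degrades ubiquitinated proteins, consists of a core particle with the proteolytic sites and a regulatory particle with ATPase and non-ATPase subunits.

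Libraries held 60986237 to 69204396 counts at 15 min and 51555784 to 63287111 at 360 min. One library of each stage was high in ribosomal RNA: 15 min replicate 2 with 10.2% of counts and 360 min replicate 3 with 11.7%, against 1.98 to 5.53% in the other 4. Of 5 ribosomal RNA genes tested, 2 were lower at 360 min and 0 higher. Without both of these libraries, 3539 genes were upregulated and 3142 downregulated. The *mat a* gene *mat_a1* had 0 counts in all 12 libraries and *matA-1* had 2332, as the strain's mating type requires. Conidial marker genes summed to 6774 to 6980 CPM (counts scaled to a common library size) in the 15 min libraries and to 910 to 1020 CPM at 360 min, so that the first group carried the markers of its label.

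Most of the transcriptome differed between conidia and branching hyphae. With edgeR's quasi-likelihood test at a Benjamini-Hochberg adjusted p of 0.05, 6816 genes (84.0% of those tested) changed, of which 3568 (44.0%) were higher and 3248 (40.0%) lower at 360 min. The 3 hyphal libraries all lay above the 3 conidial ones for 44.0% of genes and all below for 40.9%. With a test that asks for more than a 2-fold change, 3576 genes (44.1%) passed, of which 2028 (25.0%) were higher and 1548 (19.1%) lower. Fold changes are given as log2 of 360 min over 15 min with standard errors (SE), and the levels as CPM scaled by TMM factors, which assume that most genes keep their level. The split of higher against lower genes depended on that scaling. Higher genes were 52.3% of the changed genes with TMM, 45.4% with upper-quartile factors (3116 higher and 3751 lower), and 61.9% with library totals alone (4177 and 2576), and the median of all genes moved by -0.24 and 0.30 on the log2 scale. Changes of that size have no settled direction in these data.

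Rises outnumbered falls at moderate size, and falls outnumbered rises among the largest changes. A fitted fold has no measured size where a stage has 0 counts in all 3 libraries, which held for 8 of the upregulated and 70 of the downregulated genes. Among the others, 1151 genes were higher and 721 lower by 4-fold or more, and 13 were higher and 53 lower by 64-fold or more. Their log2 fold changes ran from -10.73 to 8.64. Over all genes tested the median was 0.05, and 90% of genes lay between -2.99 and 3.24. The counts of list members given below stand beside 44.0% of all tested genes higher and 40.0% lower. The share of rises differed between levels, with no single trend. With genes divided by mean CPM into equal groups of 2029 or 2030, 616 rose and 1226 fell in the highest group, with a median of -0.44. In the middle groups 1229 and 1245 rose and 560 and 604 fell, with medians of 0.68 and 0.53, and in the lowest group 478 rose and 858 fell, with a median of -0.52. With ribosomal RNA genes left out, the total share held by the most abundant genes was similar. The top 10 of the remaining genes took 9.80 to 10.1% of the remaining counts in conidia and 9.35 to 9.64% in hyphae.

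**Figure D1:**
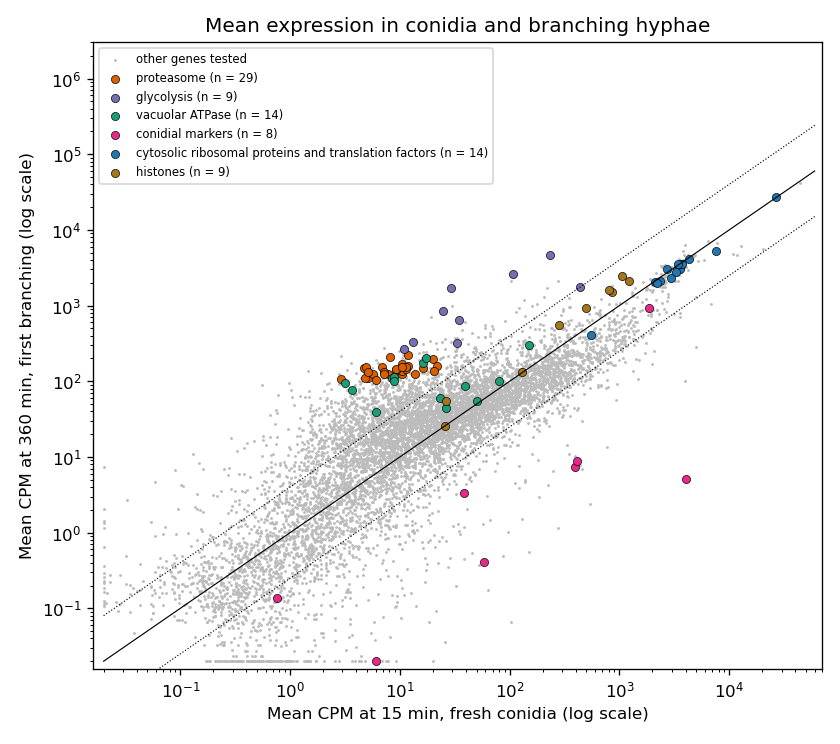
Mean CPM at 15 min (horizontal, log scale) against mean CPM at 360 min (vertical, log scale) for the genes tested, with 6 gene lists coloured. The solid line marks equal levels and the dotted lines 4-fold differences, and means under 0.02 CPM are drawn at 0.02. The proteasome and glycolysis genes lie together above the diagonal, 7 of the 8 conidial markers lie well below it, and ribosomal proteins and translation factors lie close to it.

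Glycolysis genes made up the clearest rise. All 9 listed genes were upregulated (beside 44.0% of all genes tested), with log2 fold changes from 2.02 for *ace-8*, which encodes pyruvate kinase, to 5.88, and a median of 4.61 beside 0.05 for all genes. Their summed level went from 892 to 970 CPM in conidia to 12175 to 13680 CPM in hyphae. *fba* (NCU07807), which encodes fructose bisphosphate aldolase, stood at 28.5, 29.3, and 29.9 CPM in the 15 min replicates and at 1748, 1685, and 1734 CPM at 360 min. This was the largest rise among genes with a symbol and at least 50 CPM, by 58.9-fold (log2 5.88, SE 0.05, adjusted p = 3.2e-16). *emp-7* (NCU10042), the enolase gene, had 104, 106, and 112 CPM in conidia and 2781, 2716, and 2383 CPM in hyphae (log2 4.61, SE 0.07). *pgk* (NCU07914), for phosphoglycerate kinase, rose from 24, 24.4, and 25.0 CPM to 970, 921, and 665 CPM (log2 5.12, SE 0.12), and the lowest hyphal library was the one high in ribosomal RNA. Earlier steps of the pathway rose by different amounts. *emp-1* (NCU02542), for hexokinase, rose from 10.3 to 11.8 CPM to 257 to 273 CPM, and *emp-3* (NCU00629), for phosphofructokinase, from 12.4 to 13.7 CPM to 307 to 343 CPM (log2 4.61 and 4.65, SE 0.06 each). *gpi-1* (NCU07281), for the glucose-6-phosphate isomerase that acts between them, rose from 32.8 to 33.8 CPM to 272 to 353 CPM (log2 3.27, SE 0.08). In these genes the hyphal libraries were far above every conidial one. Per kilobase of gene span, the 9 genes differed by 38.6-fold among themselves in conidia and by 31.2-fold in hyphae, with *emp-1* lowest and the glyceraldehyde-3-phosphate dehydrogenase gene *gpd-1* highest at both stages.

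Genes of glycogen synthesis rose with them. *gsy-1* (NCU06687), for glycogen synthase, had 3.47, 3.65, and 2.80 CPM in conidia and 135, 137, and 151 CPM in hyphae (log2 5.41, SE 0.09, adjusted p = 1.2e-14). *gnn* (NCU06698), for the primer protein glycogenin, rose from 3.91 to 4.67 CPM to 74.7 to 82.8 CPM (log2 4.23, SE 0.07). The trehalose genes were split. *tre-2* (NCU04221) rose to 54.8 to 66.0 CPM (log2 2.70), whereas the trehalase gene *tre-1* had a log2 fold change of -3.30 and *ccg-9*, for trehalose synthase, of -2.51. *ccg-9* was at 0.943, 0.570, and 0.759 CPM in conidia and 0.142, 0.264, and 0 CPM in hyphae, and its adjusted p of 0.015 by edgeR became 0.051 without 15 min replicate 1 (log2 -2.31).

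Genes that serve growth without sugar moved in different directions. Of 7 glyoxylate-cycle and gluconeogenesis genes, 5 fell and 2 rose (median -0.75). *acu-6* (NCU09873), for phosphoenolpyruvate carboxykinase, fell from 25.8, 27.3, and 25.4 CPM to 0.439, 1.09, and 0.790 CPM (log2 -5.09, SE 0.26). The log2 fold change of *fbp-1*, for fructose-1,6-bisphosphatase, was -1.57, and that of *acu-3*, for isocitrate lyase, was -0.75. *acu-5* (NCU06836), for acetyl-CoA synthetase, rose from 25.1 to 26.3 CPM to 252 to 281 CPM (log2 3.37, SE 0.06). *hgt-1* (NCU10021), a high-affinity glucose transporter gene, went from 90.7, 87.2, and 83.8 CPM to 0.538, 0.578, and 0.353 CPM (log2 -7.48, SE 0.14, adjusted p = 2.3e-14). It was also at 0.547 CPM at 120 min and 0.470 CPM at 240 min. *cre-1* (NCU08807), which encodes the carbon catabolite repressor, fell from 389 to 402 CPM to 88.7 to 112 CPM (log2 -2.0, SE 0.07). No library of one stage reached the range of the other in any of these genes.

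The proteasome moved as a block. All 29 listed subunit genes were upregulated, with a median log2 fold change of 4.01 and a range from 2.74 for *rpn-12* to 5.18 for *rpn-6*. The 13 core-particle genes had a median of 4.01 and the 16 regulatory-particle genes one of 4.05. Their summed level was 283 to 291 CPM in conidia and 4155 to 4262 CPM in hyphae, and it was already 5131 to 5220 CPM at 120 min. *rpn-6* (NCU01596), for a lid subunit of the regulatory particle, had 3.24, 2.52, and 3.00 CPM in conidia and 102, 103, and 113 CPM in hyphae (SE 0.08, adjusted p = 7.2e-15). *pca-4* (NCU06440), for an alpha subunit of the core, had 5.75, 3.76, and 4.71 CPM and then 145, 141, and 161 CPM (log2 4.97, SE 0.12). *rpn-3* (NCU02224), another lid gene, rose from 4.65 to 5.16 CPM to 140 to 162 CPM (log2 4.95, SE 0.07). The levels of the subunit genes were also closer together in hyphae. Per kilobase of gene span, the highest exceeded the lowest by 8.61-fold in conidia and by 3.73-fold in hyphae.

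One gene with a proteasome name went the other way. *rpn-4* (NCU01640), whose budding yeast namesake encodes a transcription factor of proteasome genes and no subunit, fell from 456, 461, and 403 CPM to 7.32, 7.14, and 8.83 CPM (log2 -5.82, SE 0.11, adjusted p = 1.7e-14). At 120 and 240 min it stood at 11 and 7.60 CPM. It was chosen by its rank among the falls.

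The vacuolar ATPase, which pumps protons into the vacuole, rose unevenly. Of 14 genes, 13 were upregulated (median 3.07), a list that was added after values had been seen. The 8 genes of the peripheral catalytic sector had log2 fold changes from 2.71 to 4.90 (median 3.61), and the 6 of the membrane sector from 0.13 to 1.36 (median 0.90), so that the ranges of the sectors did not overlap. *vma-13* (NCU02746), of the peripheral sector, went from 3.14, 2.98, and 3.36 CPM to 87.7, 89.0, and 106 CPM (log2 4.90, SE 0.09). *vma-16*, of the membrane sector, did not pass the threshold (log2 0.13). The plasma membrane proton pump gene *pma-1* (NCU01680), among the most abundant transcripts of conidia, fell from 10638, 10849, and 11130 CPM to 4757, 5044, and 4593 CPM (log2 -1.18, SE 0.06), with 3540 CPM at 120 min.

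**Figure D2:**
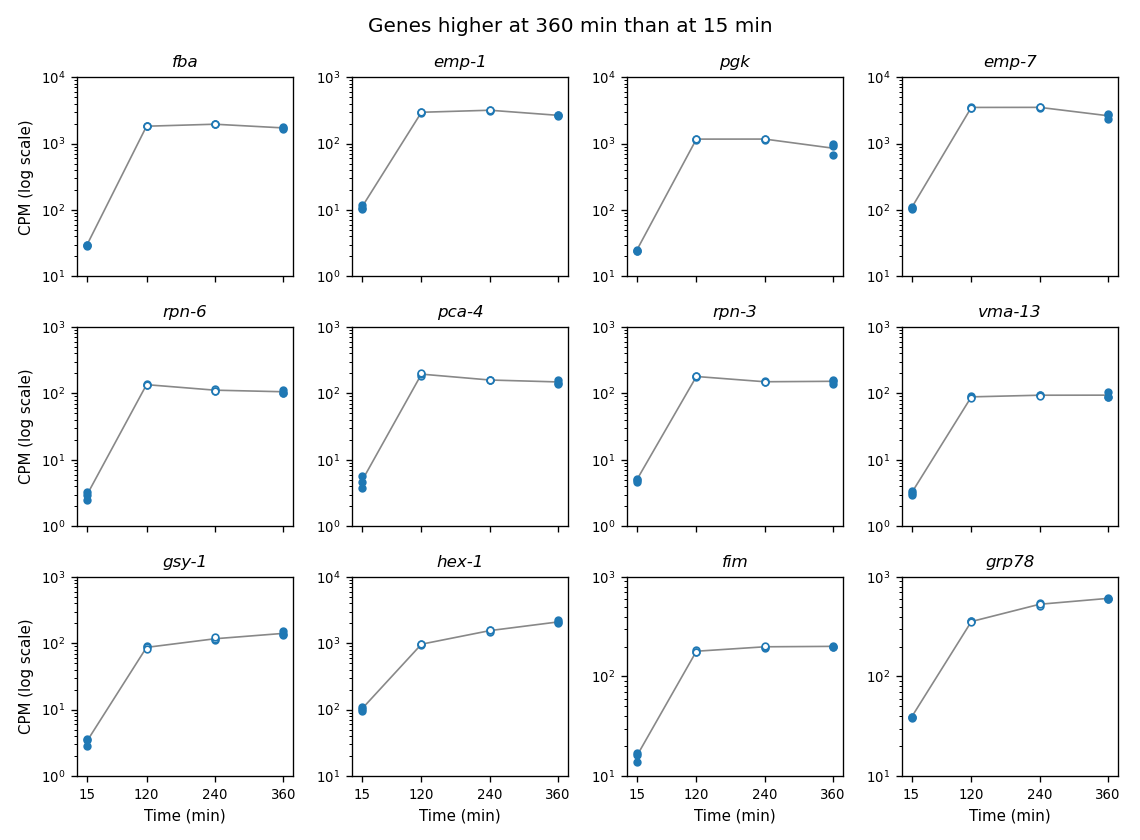
CPM (log scale) of 12 genes that were higher at 360 min, against the time of collection in min. Points are single libraries, filled for the 2 stages compared and open for 120 and 240 min, and lines join the stage means. In each panel all 3 libraries of 360 min lie above those of 15 min, and *hex-1* and *grp78* were higher at 360 min than at 120 min.

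Cytoskeleton genes mostly rose. Of 17, 13 were upregulated and 3 downregulated (median 0.83). Divided after values were seen, with no test of the difference, the 7 genes on the actin side, the myosin gene *myo2* included, had a median of 3.10, and the 10 genes for tubulins, kinesins, and dynein functions a median of 0.54. *fim* (NCU03992), for the actin-bundling protein fimbrin, had 14, 17.1, and 16.2 CPM in conidia and 200, 199, and 203 CPM in hyphae (log2 3.67, SE 0.07, adjusted p = 1.6e-14). *arp2* (NCU07171), of the actin-nucleating Arp2/3 complex, rose from 9.29 to 10.1 CPM to 102 to 115 CPM (log2 3.48), and *tpm* (NCU01204), for tropomyosin, from 39.9 to 48.8 CPM to 380 to 528 CPM (log2 3.24, SE 0.12). The formin gene *bni1* (NCU01431) was the exception on the actin side, with 158 to 173 CPM and then 118 to 144 CPM (log2 -0.32, SE 0.07), a difference that no longer passed the threshold when libraries were scaled by totals (log2 -0.02).

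Peroxisome genes were mostly higher in hyphae. All 20 peroxin genes, whose proteins build peroxisomes and import their enzymes, were upregulated, with log2 fold changes from 0.42 to 3.79 and a median of 1.20. *pex6* (NCU08373) rose from 4.57, 4.61, and 4.33 CPM to 62.9, 68.2, and 56.1 CPM (log2 3.79, SE 0.08). *hex-1* (NCU08332), which encodes the core protein of the Woronin body, the peroxisome-derived plug of septal pores, went from 101, 94.4, and 110 CPM to 2061, 2231, and 2005 CPM (log2 4.37, SE 0.07, adjusted p = 8.6e-15). The hyphal level was 20.6-fold that of conidia, and 969 and 1552 CPM were measured at 120 and 240 min.

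Chaperone genes went both ways. Of 11, 5 rose and 6 fell, and the median of -0.16 became 0.14 when libraries were scaled by totals. *grp78* (NCU03982), for the Hsp70 of the endoplasmic reticulum, rose from 39.5, 38.7, and 38.8 CPM to 605, 621, and 600 CPM (log2 3.96, SE 0.05). *hsp90a* (NCU01792) rose from 22.9 to 25.0 CPM to 318 to 332 CPM (log2 3.76, SE 0.05). *hsp70-2* (NCU02075), one of the most abundant transcripts of conidia, fell from 12582, 13062, and 12395 CPM to 6672, 6078, and 5901 CPM (log2 -1.03, SE 0.07). All 3 ergosterol genes rose, led by *erg-4* (NCU03006), from 15.2 to 17 CPM to 222 to 257 CPM (log2 3.91, SE 0.07).

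The listed genes of the translation machinery stayed abundant at both ends. They were listed by symbol, 10 of them for ribosomal proteins, and genes without a symbol were left out. Of 14 ribosomal protein and translation factor genes, 1 rose and 6 fell, and no log2 fold change exceeded 0.53 in size. The median was -0.11 and turned to 0.19 with library totals, so that no direction can be given. *tef-1* (NCU02003), for elongation factor 1 alpha, was the most abundant named gene at both stages, with 25355, 25779, and 28074 CPM in conidia and 30512, 27877, and 22949 CPM in hyphae. These ranges overlapped (log2 0.04, SE 0.10, adjusted p = 0.72), and the sign differed between scalings. *cot-3* (NCU07700), for elongation factor 2, had 7292 to 7860 CPM and then 6330, 5643, and 3748 CPM (log2 -0.53, SE 0.14), with the lowest value in the library high in ribosomal RNA. Histone genes were higher in hyphae in 7 of 9 cases (median 0.93), among them *hH2B* (NCU02435), from 1017 to 1091 CPM to 2399 to 2539 CPM (log2 1.23, SE 0.05). *hH4-1* and *hH4-2* are near-identical copies whose counts may be shared between them.

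Within the mitochondrion, complex I differed from the later complexes. Of 29 listed complex I subunit genes, 25 fell and 2 rose (median -0.77), whereas of 11 genes for complexes III to V and cytochrome *c*, 8 rose and 0 fell (median 0.43). Scaling moves all these values together by at most 0.30 and leaves the distance between the medians. *nuo14.8* (NCU00418) fell from 50.7, 46.3, and 46.8 CPM to 5.58, 6.41, and 5.51 CPM (log2 -3.04, SE 0.08, adjusted p = 7.4e-13), and *nuo17.8* (NCU00969) from 59.8 to 63.2 CPM to 7.59 to 9.93 CPM (log2 -2.79, SE 0.09). *cox-6* (NCU06695), of cytochrome *c* oxidase, rose from 195, 193, and 210 CPM to 612, 608, and 458 CPM (log2 1.49, SE 0.09). Of 5 genes for alternative NADH dehydrogenases and the alternative oxidase, 2 rose and 2 fell. *nde-2* (NCU08980), the most abundant by CPM, fell from 1148 to 1163 CPM to 659 to 804 CPM (log2 -0.66, SE 0.06), and the oxidase gene *aod-1* had a log2 fold change of -0.84. *nde-3* (NCU09447) rose from 7.21 to 8.01 CPM to 26.2 to 29.9 CPM (log2 1.88, SE 0.07). Of 22 protein import genes, a list also added after values had been seen, 7 rose and 12 fell. *por* (NCU04304), for the outer-membrane porin, had 205 to 236 CPM and then 1561 to 1752 CPM (log2 2.94, SE 0.06), and *tim17* (NCU05623), for an inner-membrane translocase subunit, 298 to 308 CPM and then 117 to 133 CPM (log2 -1.28).

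**Figure D3:**
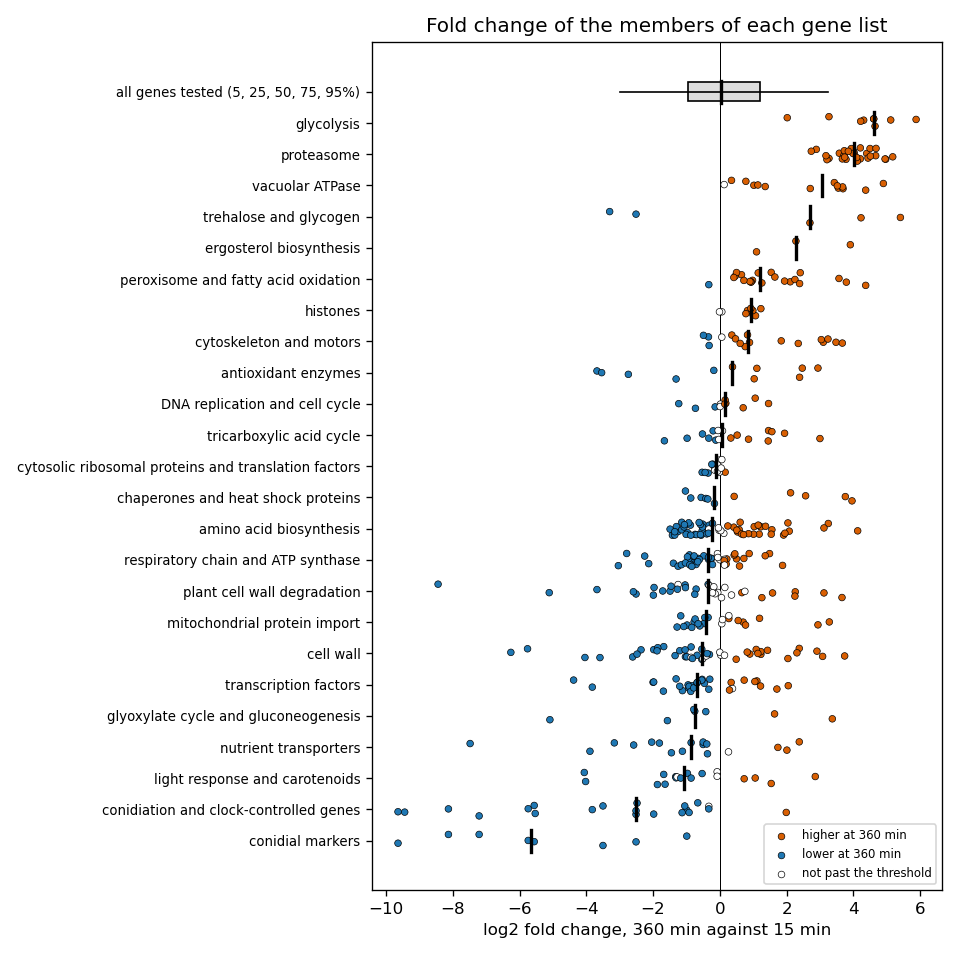
Log2 fold change (360 min over 15 min) of each tested member of 24 gene lists, ordered by list median, beside the distribution of all genes tested. Points are genes, coloured by whether they passed the threshold upward, downward, or not, thick bars are medians, and for all genes the box spans the middle 50% and the line 90%. Glycolysis and the proteasome have every member above the upper quartile of all genes (1.21), and the conidial markers every member below 0.

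Conidial genes fell far. All 8 conidial markers were downregulated (beside 40.0% of all genes tested), with a median log2 fold change of -5.65, and so were 19 of the 21 conidiation and clock-controlled genes (median -2.51), with *ccg-16* higher (log2 1.99). At each later stage *con-13* averaged at most 0.0201 CPM and *ccg-4* at most 0.0778 CPM. Both had enough counts to be tested only through the conidial libraries, so their falls were nearly fixed in advance. These counts of markers are a description and no test. *eas* (NCU08457), which encodes the hydrophobin of the rodlet layer, had 4155, 4034, and 3988 CPM in conidia and 10.6, 3.14, and 1.49 CPM in hyphae (log2 -9.64, SE 0.56, adjusted p = 1.6e-09). The hyphal libraries varied by several fold among themselves and stayed far below the conidial ones. *con-6* (NCU08769), a conidiation gene, went from 401, 392, and 395 CPM to 9.10, 5.62, and 7.36 CPM (log2 -5.74, SE 0.19), and *con-8* (NCU09235) from 58.1 to 58.9 CPM to 0.268 to 0.661 CPM (log2 -7.21, SE 0.30). *ccg-1* (NCU03753), clock-controlled and glucose-repressible, had 429, 405, and 410 CPM and then 5.92, 5.09, and 15.2 CPM (log2 -5.56, SE 0.32), with the highest hyphal value in replicate 3. *con-10* (NCU07325) and *con-13* (NCU07324) lie next to each other on linkage group IV of the NC12 assembly (IV:4364944-4365763 and IV:4367319-4368460). *con-10* fell from 37.7 to 38.9 CPM to 2.1 to 4.51 CPM (log2 -3.50), whereas *con-13* had 5.71 to 6.64 CPM and was at 0 in 2 hyphal libraries and at 0.0566 CPM in the other. *ccg-6* (NCU01418) was the marker that remained, at 1841 to 1896 CPM and then 881 to 1003 CPM (log2 -0.99, SE 0.05). The regulator of conidial development *fl* (NCU08726) fell from 18.6 to 19.4 CPM to 0.934 to 1.78 CPM (log2 -3.82, SE 0.18).

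The markers of sexual development that could be tested were also higher in conidia. The 4 markers found in the table summed to 139 to 156 CPM at 15 min and 2.26 to 2.99 CPM at 360 min, and all 3 that could be tested fell. Most of the conidial sum was *poi-2*, which averaged at most 0.066 CPM at each later stage. It had enough counts to be tested only through the conidial libraries, so its fall was nearly fixed in advance. *poi-2* (NCU05768) had 111, 103, and 96.9 CPM in conidia and 0.156, 0, and 0.0423 CPM in hyphae (log2 -10.51, SE 0.33, adjusted p = 2.8e-12), and *app* (NCU04533) fell from 37.0 to 39.6 CPM to 0.338 to 0.581 CPM (log2 -6.41, SE 0.25). *asd-1* (NCU05598) fell less, from 4.49 to 5.30 CPM to 1.77 to 2.46 CPM (log2 -1.25, SE 0.18). *per-1*, which was not tested, was at 0.0814 CPM or less in conidia, with means of 0.0481 CPM there and 0.0621 CPM in hyphae. Whether other tissue of the parent cultures contributed to the conidial levels was not tested.

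Most clock and light genes were lower. Of 18 light-response and carotenoid genes, 11 fell and 4 rose (median -1.07). *frq* (NCU02265), the central clock gene, fell from 952, 963, and 890 CPM to 58.6, 55.6, and 54.0 CPM (log2 -4.06, SE 0.06, adjusted p = 4.4e-15), with 76.7 CPM at 120 min. *frh* (NCU03363), whose product is the helicase partner of FRQ, fell from 1115 to 1151 CPM to 244 to 353 CPM (log2 -1.87, SE 0.11). *wc-1* (NCU02356), for the blue-light receptor WC-1, fell from a mean of 166 CPM to one of 66.6 CPM (log2 -1.31, SE 0.31). *wc-2* (NCU00902), for a partner of WC-1, rose from 34.8 to 40.0 CPM to 61.0 to 65.5 CPM (log2 0.73, SE 0.06). The other 3 that rose were carotenoid genes. They were *al-2* (NCU00585), for phytoene synthase, with log2 1.06, and *al-3* (NCU01427), for geranylgeranyl diphosphate synthase, with log2 1.54. The third was *ylo-1* (NCU04013), from 8.51 to 9.33 CPM to 59.3 to 69.0 CPM (log2 2.86, SE 0.07). Carotenoid genes did not all rise, since *al-1* did not pass the threshold (log2 -0.08) and *cao-2* (NCU11424) fell (log2 -1.68).

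**Figure D4:**
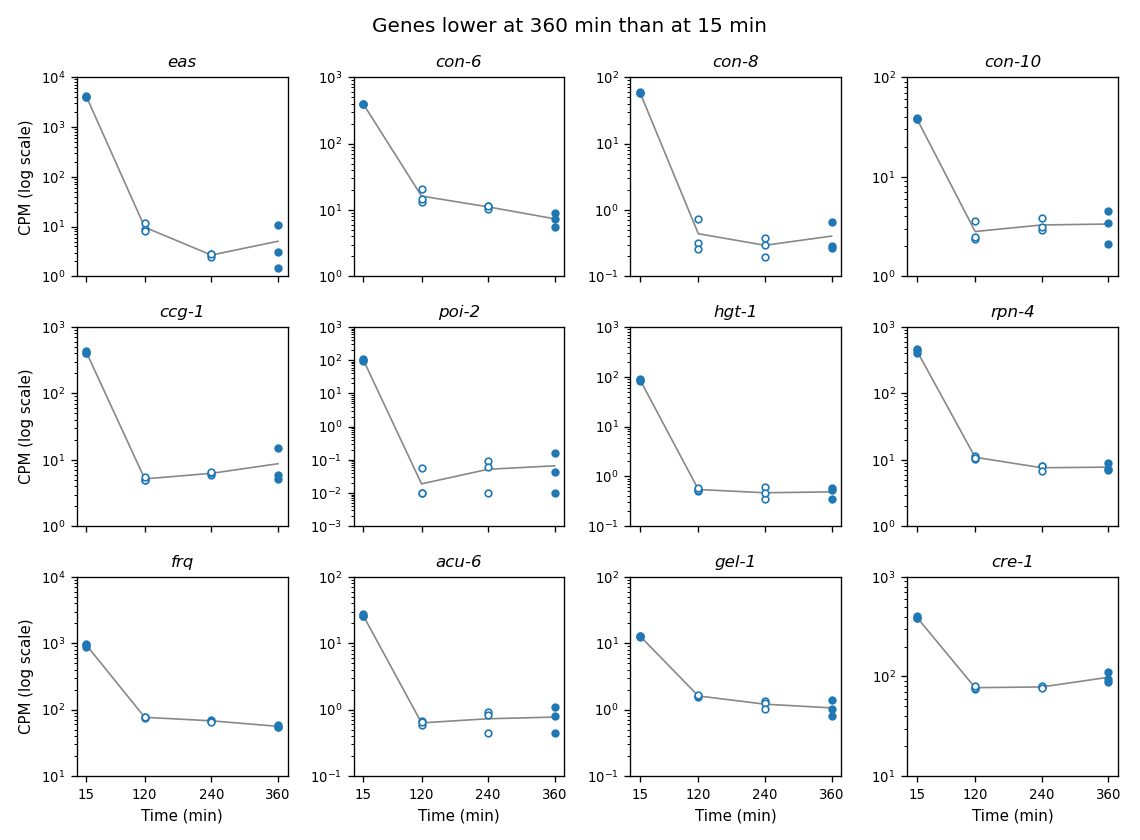
CPM (log scale) of 12 genes that were lower at 360 min, against the time of collection in min. Points are single libraries, filled for the 2 stages compared and open for 120 and 240 min, lines join the stage means, and values under 0.01 CPM are drawn at 0.01. All 12 were already below the conidial range at 120 min, and the 360 min libraries of *eas* spread from 1.49 to 10.6 CPM.

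Antioxidant genes changed in both directions. All 4 catalase genes were downregulated, from *cat-2* (NCU05770), with 14.5 to 16.5 CPM and then 1.01 to 1.37 CPM (log2 -3.68, SE 0.21), to *cat-4* (log2 -1.31). *cat-1* (NCU08791), for a catalase associated with conidia, went from 38.4, 37.6, and 41.9 CPM to 4.67, 5.96, and 6.98 CPM (log2 -2.74, SE 0.12). *sod-1* (NCU02133), for copper-zinc superoxide dismutase, rose from 66.5, 69.5, and 72.1 CPM to 538, 506, and 548 CPM (log2 2.94, SE 0.05), and the thioredoxin gene *trx* (NCU05731) from 13.7 to 14.1 CPM to 71.8 to 85.2 CPM (log2 2.47). Of 17 nutrient transporter genes, 13 were lower and 3 higher. The 3 that rose were the copper transporter genes *tcu-1* (log2 2.38), *tcu-2* (log2 1.74), and *tcu-3* (log2 2.01). *pho-4* (NCU09564), a high-affinity phosphate transporter gene, fell from 10.7 to 11.3 CPM to 0.710 to 0.765 CPM (log2 -3.89, SE 0.18), and *tzn-2* (NCU11414) had a log2 fold change of -2.58.

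Cell wall genes moved in both directions. Of 43 tested, 14 rose and 23 fell (median -0.54). *gfa1* (NCU07366), for the first enzyme of the chitin precursor pathway, rose from 22.4 to 23.9 CPM to 186 to 200 CPM (log2 3.08, SE 0.05). Among 5 chitin synthase genes 3 rose and 2 fell, from 2.38 for *chs-3* to -1.34 for *chs-6*. *chs-6* had the lowest level of the 5, with means of 0.639 CPM in conidia and 0.251 CPM in hyphae (SE 0.31). All 4 glucanosyltransferase genes fell, *gel-1* (NCU01162) from 12.6 to 13.1 CPM to 0.793 to 1.38 CPM (log2 -3.59, SE 0.17). *acw-9* (NCU06185), for an anchored cell wall protein, rose from 118 to 128 CPM to 767 to 1016 CPM (log2 2.91, SE 0.14), and *gh18-4* (NCU04883), for a family 18 glycoside hydrolase, fell from 26.2 to 28.2 CPM to 0.264 to 0.451 CPM (log2 -6.26, SE 0.20).

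Amino acid biosynthesis did not move in 1 direction. Of 59 genes, 25 rose and 29 fell, and the median of -0.22 became 0.08 with library totals. *leu-1* (NCU06232) and *leu-2* (NCU04385), both of the leucine pathway, rose from 3.61 to 5.23 CPM to 76.4 to 85.2 CPM (log2 4.13, SE 0.11) and from 5.50 to 5.94 CPM to 51.8 to 56.9 CPM (log2 3.25, SE 0.06). *am* (NCU01195), for NADP-dependent glutamate dehydrogenase, fell from 980, 967, and 966 CPM to 352, 339, and 348 CPM (log2 -1.49, SE 0.05). Of 17 genes named for the tricarboxylic acid cycle, the third list added after values were seen, 8 rose and 6 fell (median 0.08, which turned to -0.17 with upper-quartile factors). Of 30 transcription factor genes, 21 fell and 8 rose (median -0.68), beside 40.0% and 44.0% of all genes tested. *clr-2* (NCU08042), which drives cellulase genes, fell from 15.4 to 16.9 CPM to 0.446 to 1.12 CPM (log2 -4.38, SE 0.25), and *ada-1* (NCU00499) rose from 6.78 to 8.64 CPM to 30.5 to 36.5 CPM (log2 2.05, SE 0.10).

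Genes without a symbol changed as far as the named ones. NCU09562 went from 0.676, 0.700, and 0.293 CPM in conidia to 89.7, 76.8, and 98.7 CPM in hyphae (log2 7.29, SE 0.66, adjusted p = 1.9e-07), by way of 8.16 and 25.1 CPM at 120 and 240 min. NCU01511 rose from 0.651 to 1.31 CPM to 90.5 to 102 CPM (log2 6.61, SE 0.15) and was at 100 CPM by 120 min. NCU01511 was thus near its final level at 120 min and NCU09562 was not. NCU04168 fell from 279, 272, and 273 CPM to 1.77, 0.710, and 1.02 CPM (log2 -7.86, SE 0.21), and its neighbour on linkage group V, NCU04167, had a log2 fold change of -7.82. NCU09184 fell from 61.7 to 67.4 CPM to 0 to 0.354 CPM (log2 -8.51, SE 0.37).

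Between the 2 stages compared, many more genes were found only in conidia than only in hyphae. With at least 10 counts in each library of 1 stage and 0 in each of the other, 73 of the 10592 genes in the count table were detected at 15 min only and 3 at 360 min only. The rule leaves out 120 and 240 min, and some of the 73 had counts there, such as NCU03295 with a mean of 0.151 CPM at 120 min. With at least 30 counts against at most 1, the numbers were 35 and 2. NCU05567 had 8.99, 8.77, and 9.65 CPM in conidia, at least 204-fold above the limit of 3 counts per hyphal library. NCU03160 was detected in hyphae only, with 2.55, 2.06, and 1.59 CPM, at least 42.0-fold higher than the limit in conidia, and it was at 0 at 120 min and 2.73 CPM at 240 min. *matA-3*, of the mating-type locus, was among the conidial genes, with 34 to 42 counts at 15 min and 0 in the 9 later libraries.

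Of the 73 genes detected at 15 min and not at 360 min, 8 (11%) came from 1 stretch of linkage group VII that holds 0.179% of the genes in the table. Secondary metabolism cluster (SMC) no. 20, predicted from sequence, holds 19 genes between VII:3720774 and VII:3763243 of NC12, of which 15 were tested, 12 fell, and 2 rose, beside 40.0% of all tested genes lower and 44.0% higher. The 12 genes that fell averaged at most 0.0706 CPM at each later stage. They had enough counts to be tested only through the conidial libraries, so a fall was nearly fixed in advance. Their number beside the shares of all genes is therefore a description and no test. The genes that fell included *poi-2* at the far end of the cluster. NCU05763 had 6.93, 8.24, and 8.28 CPM in conidia and 0 in all 9 later libraries, at least 175-fold above the limit. NCU05766 averaged 4.28 CPM in conidia and was at 0 in hyphae. At the other end, NCU05757 was at 6.59 and 5.61 CPM (log2 -0.23, SE 0.12, adjusted p = 0.098). NCU05756, 1 of the 2 that rose, had 0.138 to 0.179 CPM in conidia and 0.198, 0.264, and 0.762 CPM in hyphae, the last in the library high in ribosomal RNA. Without that library (360 min replicate 3) neither rise passed the threshold, with edgeR adjusted p = 0.27 for NCU05756 and 0.099 for NCU05755.

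**Figure D5:**
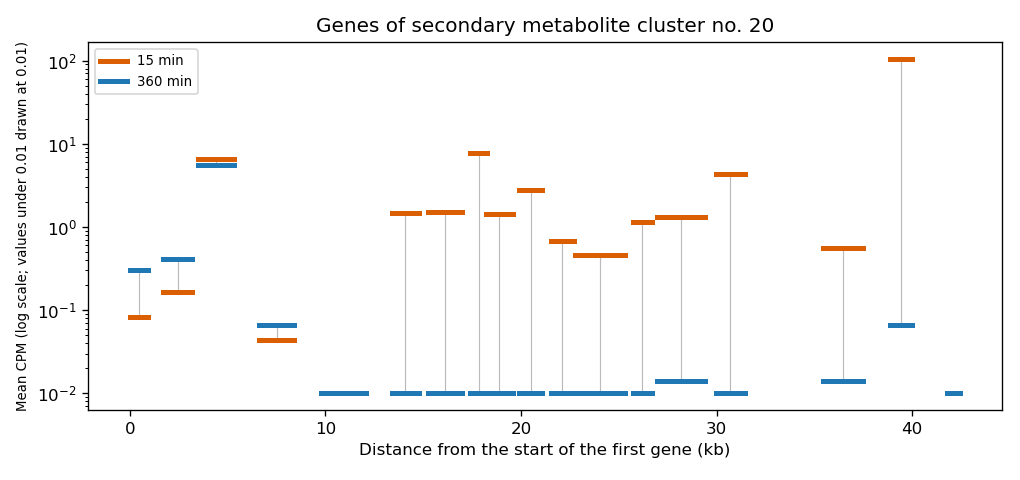
Mean CPM (log scale) of the 19 genes of SMC no. 20 at 15 and 360 min, against the distance in kb from the start of the first gene. Each bar spans a gene, and values under 0.01 CPM are drawn at 0.01. The tested genes from NCU05761 to *poi-2* were present in conidia and at or near 0 in hyphae.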

How the data were processed

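The authors' table holds counts per gene for each library. Per the labels and methods, polyadenylated RNA was captured on oligo(dT) beads for strand-specific paired-end libraries. The submitters' processing notes name CASAVA 1.8.2, HISAT2 2.1.0, and StringTie 1.3.3b. The deposited counts were derived by the authors from StringTie coverage, so they are estimates, to which each mate may add. A deposited file of LOX relative expression (the authors' own comparison, with replicates pooled) was not used. Counts were analysed with edgeR 4.0.16 (filterByExpr, TMM, 1 mean per stage over all 12 libraries, 8 residual degrees of freedom, quasi-likelihood test, Benjamini-Hochberg adjustment). The method was also run on simulated counts in which few genes changed, equally often up and down, with the same spread for all genes. That setting does not cover data in which most genes change. The biological coefficient of variation was 0.102. The 12 libraries held 51555784 to 84946272 counts, so that 3 counts, the limit a count of 0 allows, were 0.0357 to 0.0567 TMM-scaled CPM, for counting error only. Replicates are the 3 collections of each stage, and no pair was a duplicate.

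Symbols and NC12 coordinates came from a RefSeq table (10590 of 10592 IDs found). Lists and their members were chosen with earlier results of these data known, and lists that needed product descriptions (mitochondrial ribosomal proteins, ribosome biogenesis, aminoacyl-tRNA synthetases, secretory pathway, autophagy, cytochrome P450, hypothetical proteins) were not formed. Divisions of a list into complexes or sectors were made after values were seen, and *al-1* was likewise named after its values were seen. Genes were named as the 12 largest rises and falls with a symbol and 3 without (at least 50 CPM, separate libraries), the 6 most abundant per stage, up to 3 called genes per list and direction (at least 10 CPM), markers, and up to 3 genes of a single stage. Others named (*rpn-12*, *ace-8*, *gpd-1*, *gpi-1*, *wc-1*, *wc-2*, *nde-2*, *aod-1*, *myo2*, *tre-1*, *fbp-1*, *vma-16*, *cat-4*, *chs-3*, *chs-6*, NCU03295, NCU04167, *matA-1*, *matA-3*, and genes of SMC no. 20) were chosen after their values were seen. Alternatives were other scalings, DESeq2 1.42.0, no filter, no ribosomal RNA, the 6 libraries alone, a test against 2-fold, a replicate block, and leaving out each library. Leaving out both libraries high in ribosomal RNA was added after seeing the data.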

Additional observations from a re-analysis of the deposited data

How the results depend on the processing

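Leaving out each of the 6 libraries gave 6616 to 6859 changed genes, 3494 to 3583 higher and 3121 to 3276 lower. The test against a 2-fold change gave 3576 (2028 higher, 1548 lower), and the stricter detection rule cut genes found at 15 min only from 73 to 35. DESeq2 gave 3278 higher and 3588 lower, and RLE factors 3281 and 3566. Same-numbered libraries of the stages did not deviate together (r = -0.0513, 0.0419, and -0.0503). With 3 libraries per stage, such values cannot show whether libraries of the same number were collected together. With a replicate block 6767 genes changed, 3546 higher and 3221 lower.

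The test against a 2-fold change was left out of the next counts. Of 2190 values of 146 named genes under the other alternatives, 2157 kept direction and call. Of the rest, 20 lost the call, 3 gained it, and 10 changed sign. Those that changed sign were small: *tef-1* (log2 -0.21 with upper-quartile factors, -0.12 with RLE, -0.11 with DESeq2, -0.06 without 360 min replicate 1), NCU16635 (-0.10, -0.01, and -0.00 with the same 3 scalings), *crp-7* (-0.09 with upper-quartile factors), and, with library totals, *aac* (0.10) and *rpa-1* (0.16). List medians changed sign with library totals for chaperones (0.14), amino acid biosynthesis (0.08), and ribosomal proteins and translation factors (0.19). With upper-quartile factors, RLE, and DESeq2 they changed sign for DNA replication (-0.10, -0.01, and -0.00) and the tricarboxylic acid cycle (-0.17, -0.08, and -0.07). The cause was not tested. Depth limits genes under 3 counts per library, for which a value of 0 does not show absence.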

Other observations

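DNA replication and cell cycle genes changed little beside the lists above. Of 11, 6 rose and 3 fell, with a median log2 fold change of 0.15, but 3 rose and 5 fell with upper-quartile factors, 3 and 4 with RLE factors or DESeq2, and 9 and 2 with library totals, so that no direction can be given for the list. *cdc28* (NCU09778), for the cyclin-dependent kinase, had 20.4, 22.2, and 23.7 CPM in conidia and 58.6, 61.2, and 62.0 CPM in hyphae (log2 1.46, SE 0.07, adjusted p = 1.4e-10 by edgeR). The subunits of the single-stranded DNA binding complex differed, since *rpa-2* (NCU07717) rose from 24.3 to 25.9 CPM to 51.5 to 52.4 CPM (log2 1.06) and *rpa-3* (NCU01460) fell from 78.5 to 81.0 CPM to 30.4 to 36.4 CPM (log2 -1.23). Plant cell wall degradation genes were mixed, with 7 higher and 16 lower of 33 tested. *cut-1* (NCU04924) fell from 448 to 473 CPM to 89.5 to 162 CPM (log2 -1.99, SE 0.17). *gh61-9* (NCU05969) rose from 3.03 to 3.47 CPM to 14.5 to 16.6 CPM (log2 2.25, SE 0.08).

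A smaller share of noncoding RNA genes than of protein-coding genes rose, whereas the shares that fell were close. Of 95 noncoding RNA genes tested, 8 rose (8.42%) and 41 fell (43.2%), with a median of -0.92. Of 7997 protein-coding genes, 3555 rose (44.5%) and 3199 fell (40%), with a median of 0.06. In the lowest group of all genes by mean CPM, 23.5% rose and 42.3% fell, and the gene types were not matched for level. Libraries were selected with oligo(dT), and the part of that step in these values was not tested. The DNA repair gene *rad16* (NCU03650) was among the largest falls, from 186, 183, and 177 CPM to 10.2, 8.31, and 8.80 CPM (log2 -4.32, SE 0.09), and had reached 16.4 CPM by 120 min.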
